A study of Mus musculus with 2 samples.

Results

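The 36 genes described here make, sense, take up, move and export cholesterol. They were chosen by symbol from a fixed list, and all 36 were found among the 18651 genes of the 2 library tables. They comprise 18 synthesis enzymes, 4 regulators of the SREBP transcription factors, 4 uptake genes, 4 efflux and carrier genes, and 6 genes of transport and storage inside the cell. The list does not hold every gene of the pathway, and 41 further pathway genes are summarised at the end.

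RNA was sequenced from mouse oligodendrocyte lineage cells in culture, with 1 library from wild-type cells (control) and 1 from cells with a mutant genotype named Seh1cKO, by its name a conditional knockout of Seh1l. Both groups share the C57BL/6 strain, forebrain origin, pups aged 4 to 7 days, purification on antibody-coated plates, and differentiation with triiodothyronine (T3, 60 nM) to day 2. T3 is the hormone that pushes precursors to mature. The sources used here do not state the Cre driver, how many animals were used, whether they were pooled, or their sex. Cells of this lineage make myelin, a membrane unusually rich in cholesterol. The brain makes its own cholesterol, since plasma lipoproteins do not cross into it. When membrane sterol is low, the carrier Scap brings SREBP-2 to the Golgi, where it is cut and freed to switch on synthesis and uptake genes. When sterol is high, Insig proteins hold Scap back, and oxysterol-sensing LXR receptors switch on the exporters Abca1 and Abcg1, which load cholesterol onto apolipoprotein E.

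The libraries held 20730114 and 20599590 assigned reads in control and Seh1cKO. Levels are given as CPM, reads per 1000000 reads of a library, or as FPKM, which also corrects for transcript length. Seh1l, the targeted gene, was at 32.1 CPM in control against 18.5 CPM in the library labelled Seh1cKO, a ratio of 0.577 (0.508 to 0.656). Bracketed ranges after a ratio are exact 95% Clopper-Pearson intervals for counting error. With 1 library in each group there is no replicate, no test of genotype was possible, and the intervals leave out variation between cultures and animals. The lineage factors Olig1 (864 and 873 CPM) and Olig2 (496 and 648 CPM) were abundant in both libraries. Other factors of the lineage, Sox10 (426 and 207 CPM), Nkx2-2 (125 and 58.9 CPM) and Myrf (188 and 45.9 CPM), were lower in Seh1cKO. The astrocyte filament Gfap was abundant too, at 5200 and 2214 CPM. Xist, expressed from the inactive X chromosome of females, was at 0.868 and 341 CPM. In bulk RNA, fewer cells of a type and less RNA per cell cannot be told apart.

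Promoter sequences of the members were also described, apart from their levels. RefSeq promoters of GRCm38.p6, the assembly behind mm10, were found for 28 of the 36 genes. The missing entries were those of Fdps, Fdft1, Sqle, Scarb1, Lpl, Abcg1, Stard4 and Npc1. In the 250 bases before each annotated start, both strands were searched for the NF-Y box CCAAT and for the SRE-like motif TCACNCCAC. NF-Y is a general factor that assists SREBP at sterol-regulated promoters. The 2 motifs do not overlap in any sequence printed here. The synthesis promoters printed here are that of Hmgcs1, which holds both motifs, and those of 3 of the 4 enzymes furthest above control. That of the exporter Abca1 is shown for comparison. The start used for Abca1 lies inside the gene's span, which ends at 53159988, so its window overlaps that span. Capitals mark motif matches, and a match on the other strand reads ATTGG for the NF-Y box. All are written in the direction of transcription.
Hmgcs1 (chr13:119690101-119690350, plus strand): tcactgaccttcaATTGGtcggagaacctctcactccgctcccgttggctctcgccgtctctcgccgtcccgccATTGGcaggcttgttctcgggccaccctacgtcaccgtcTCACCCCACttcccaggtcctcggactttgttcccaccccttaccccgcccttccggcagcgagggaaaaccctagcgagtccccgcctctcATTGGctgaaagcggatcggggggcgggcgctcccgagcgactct
Idi1 (chr13:8885356-8885605, plus strand): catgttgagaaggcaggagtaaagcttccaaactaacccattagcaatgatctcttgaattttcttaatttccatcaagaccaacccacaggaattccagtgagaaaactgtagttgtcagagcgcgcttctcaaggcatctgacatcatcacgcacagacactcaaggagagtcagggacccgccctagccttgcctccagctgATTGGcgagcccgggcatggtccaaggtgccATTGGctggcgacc
Msmo1 (chr8:64733579-64733828, minus strand): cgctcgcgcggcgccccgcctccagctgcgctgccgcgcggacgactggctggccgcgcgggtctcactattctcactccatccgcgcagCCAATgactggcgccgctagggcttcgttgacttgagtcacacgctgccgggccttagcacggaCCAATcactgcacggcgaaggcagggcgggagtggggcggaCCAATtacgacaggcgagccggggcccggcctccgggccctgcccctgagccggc
Sc5d (chr9:42264301-42264550, minus strand): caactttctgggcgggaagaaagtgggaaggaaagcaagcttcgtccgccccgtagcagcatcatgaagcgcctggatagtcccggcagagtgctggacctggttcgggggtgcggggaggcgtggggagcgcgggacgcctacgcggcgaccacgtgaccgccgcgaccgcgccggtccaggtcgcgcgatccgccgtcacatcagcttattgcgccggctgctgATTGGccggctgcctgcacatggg
Abca1 (chr4:53159896-53160145, minus strand): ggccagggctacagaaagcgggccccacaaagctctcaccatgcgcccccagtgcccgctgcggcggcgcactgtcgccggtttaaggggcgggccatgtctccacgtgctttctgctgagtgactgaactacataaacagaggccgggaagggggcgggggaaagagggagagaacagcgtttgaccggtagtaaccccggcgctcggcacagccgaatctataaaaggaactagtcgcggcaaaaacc

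An NF-Y box lay before at least 1 annotated start in 14 of 15 synthesis genes, and Acat2 was the gene without one. The share was 37.5% over all 27025 genes of the promoter table and 40.6% over those of at least 1 CPM. In 13 of the 15 genes a box began within 100 bases of the start, against 21.6% of all genes and 26.2% of those of at least 1 CPM. Mvk had 5 boxes, the most among the synthesis genes. All 4 transport and storage genes with a promoter held a box, each within 100 bases of the start. A box was also held by 3 of 4 regulators, 1 of 2 uptake genes and 19 of 29 further pathway genes with a promoter. It began within 100 bases of the start in 1 of the regulators and 1 of the uptake genes. Of the 3 efflux and carrier genes with a promoter, Abca1, Apoe and Apod, 0 held one in this window. Counting the base just before the start as -1, the SRE-like motif began at -137 before Hmgcs1 and at -211 before Stard3. It was thus present in 2 of the 28 members with a promoter, against 1.22% of all genes and 1.20% of those of at least 1 CPM. A match is a description of letters and not evidence of binding.

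**Figure D1:**
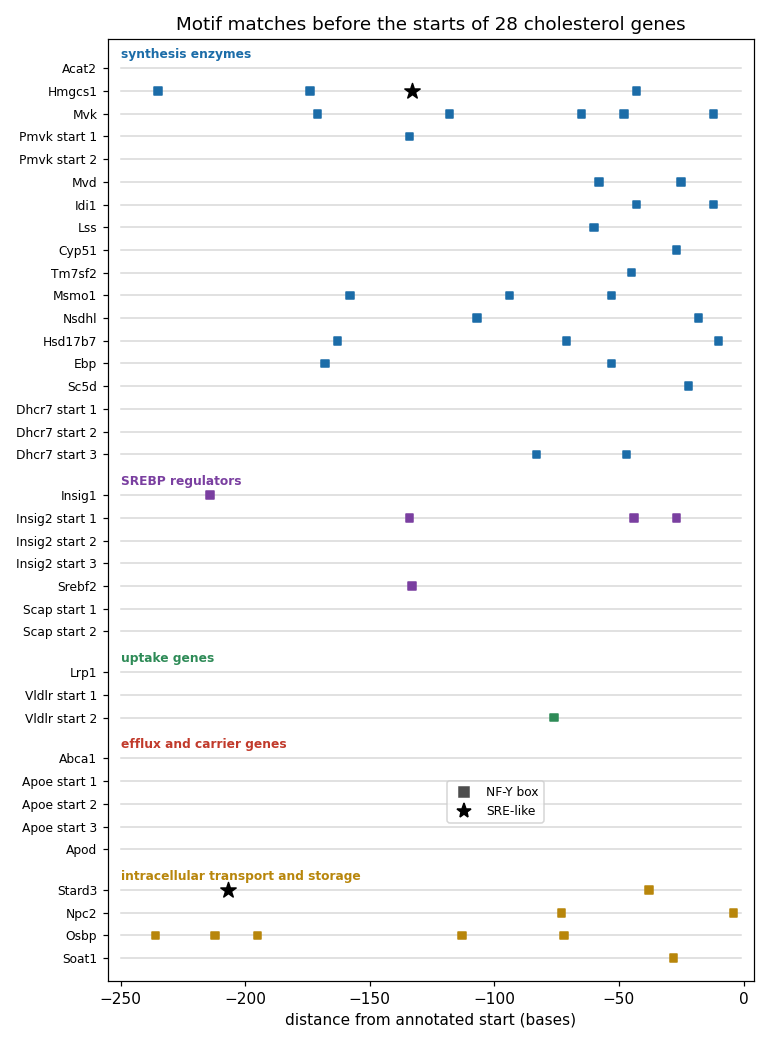
Positions of NF-Y boxes (squares) and SRE-like matches (stars) in the 250 bases before each annotated start (x axis, bases; 0 is the start) of 28 cholesterol genes, 1 line per start, coloured by role. A box begins within 100 bases of the start in 13 of 15 synthesis genes and in all 4 transport and storage genes. The efflux and carrier lines are empty.

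By level per transcript length, Apoe stood far above the other members, at 4221 FPKM in control and 1674 FPKM in Seh1cKO. It was the 3rd most abundant gene of the control library and the 20th of the Seh1cKO library on that scale. Hmgcs1 (404 and 389.8 FPKM) and Fdps (304 and 304 FPKM) followed in both libraries. The exporter Abcg1 was the lowest, at 2.53 and 1.44 FPKM. No member was at 0, and all 36 passed the floor of a mean of 1 CPM.

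**Figure D2:**
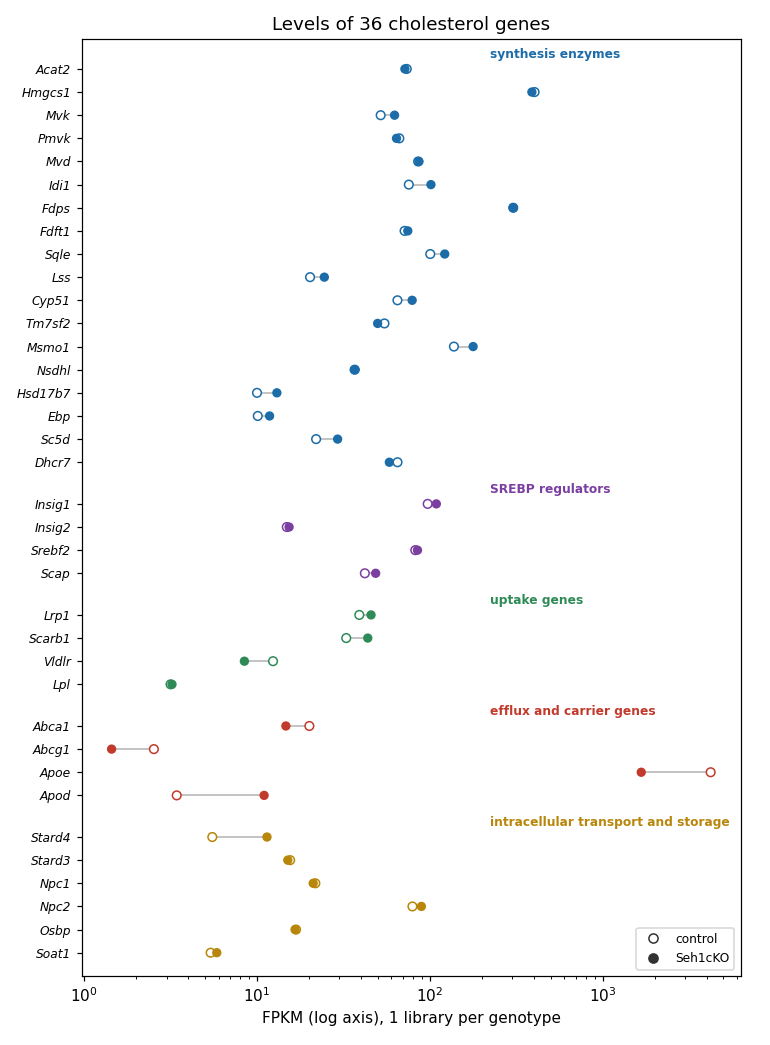
FPKM (x axis, log scale) of the 36 cholesterol genes in the control library (open circles) and the Seh1cKO library (filled circles), 1 library each, grouped by role. Most pairs nearly coincide, while Apoe, Abcg1, Abca1 and Vldlr lie to the left and Apod and Stard4 to the right in Seh1cKO.

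Most members stood close together in the 2 libraries. Differences are log2(CPM + 1) in Seh1cKO minus control, which understates low genes. On that scale a gene was counted as higher from 25% above control and as lower from 20% below it, which are equal steps in log2. Of the 36 members, 25 lay between these limits, as did 69.9% of the 13758 genes whose mean reached 1 CPM. A further 7 were at least 25% higher, against 21.3% of all genes, and 4 at least 20% lower, against 8.82%. The counting interval of the ratio lay above 1 for 17 members, below 1 for 7 and spanned 1 for 12, against 35.5%, 20.0% and 44.5% of all genes. At 2-fold, 2 members were higher (Apod and Stard4) against 2.86% of all genes, and 1 was lower (Apoe) against 1.29%. Without regard to size, 24 were higher and 12 lower, where 60.9% and 39.1% of all genes were. Rescaling by the median of ratios made that split 17 higher and 19 lower, and moved the share of all genes above 0 to 49.3%. The median of the members was 0.06 and that of all genes 0.07. As a whole the set was thus near the background.

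**Figure D3:**
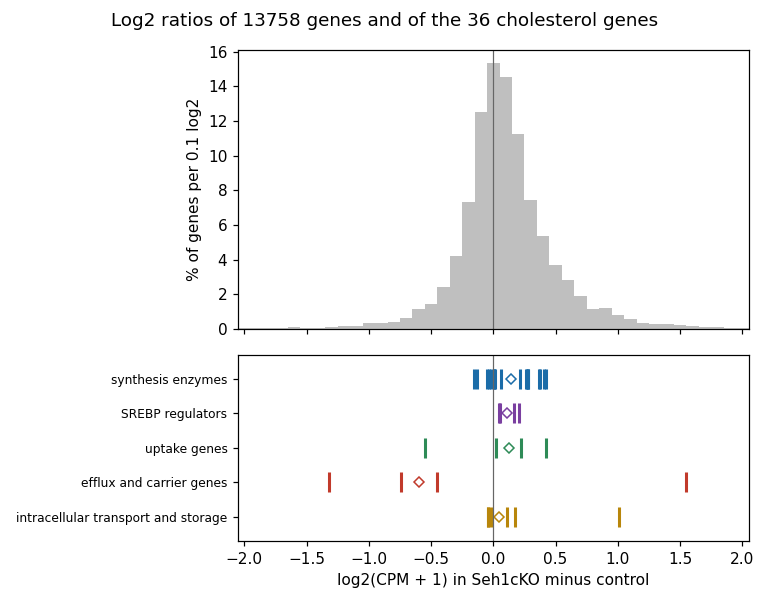
Top, log2(CPM + 1) in Seh1cKO minus control for 13758 genes, as % of genes per 0.1 log2 (92 genes beyond the axis are not drawn). Bottom, the same quantity for each of the 36 members (ticks) with the median of each role (diamonds). Synthesis enzymes and regulators lie between -0.16 and 0.42, and efflux and carrier genes at -1.32, -0.74, -0.45 and 1.55.

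The synthesis enzymes were abundant and, in sum, at near equal levels in both libraries. Together they made up 4184 CPM in control and 4467 CPM in Seh1cKO, for a ratio of 1.07 (1.06 to 1.08). Their log2 differences ran from -0.16 to 0.42 with a median of 0.14, where the median of all genes was 0.07. The median was 0.012 without the enzymes whose read counts were fractional. The counting interval lay above 1 for 10 enzymes, below 1 for 3 and spanned 1 for 5, against 35.5%, 20.0% and 44.5% of all genes. Of the 18 enzymes, 14 lay between the limits, 4 were at least 25% higher and 0 at least 20% lower. That share of higher enzymes was close to the 21.3% of all genes. Since 17 of the 18 enzymes had a mean of at least 50 CPM, genes of that level were counted too, a floor chosen after seeing the data. All 4 were among the 17, against 9.58% of such genes at least 25% higher, 8.60% at least 20% lower and 81.8% between. None of the 17 was past 2-fold, against 0.871% of such genes higher and 1.12% lower. The counting interval lay above 1 for 9 of the 17 and below 1 for 3, against 1720 and 1536 of 4823 such genes. After rescaling by the median of ratios 2 of the 18 were at least 25% higher, and 1 when enzymes with fractional read counts were left out.

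In the mevalonate part of the pathway, most enzymes were near equality. Hmgcs1, which condenses acetyl groups into HMG-CoA, stood at 1437 CPM in control against 1387 CPM in Seh1cKO, for a ratio of 0.965 (0.950 to 0.981). Acat2, the thiolase before it, was at 153 and 149 CPM. Pmvk and Mvd, which phosphorylate and decarboxylate mevalonate intermediates, were at 77.5 and 76.3 CPM and at 150.4 and 152 CPM. Fdps, which joins isoprene units to farnesyl pyrophosphate, was at 382 and 384 CPM. The counting intervals of Acat2, Pmvk, Mvd and Fdps all held 1. Mvk, the kinase of mevalonate, was higher, at 88.6 and 107 CPM, a ratio of 1.20 (1.13 to 1.28). Idi1, which isomerises isopentenyl pyrophosphate, stood furthest, at 219 CPM in control against 295 CPM in Seh1cKO, for a ratio of 1.34 (1.29 to 1.40). The 7 enzymes up to farnesyl pyrophosphate had a median log2 difference of 0.01.

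From squalene synthase onward there were 11 enzymes. Of these, 9 were higher and 2 lower, where 60.9% and 39.1% of all genes were. Their summed level was 1676 CPM in control and 1917 CPM in Seh1cKO, for a ratio of 1.14 (1.13 to 1.16). The median log2 difference was 0.27, and the split at squalene was made after the values were seen. Fdft1 and Nsdhl, both near equality, changed side under median-of-ratios scaling, which left 7 of the 11 higher. No test between the earlier and later enzymes was made. Sqle, the squalene epoxidase, stood at 278 CPM in control against 337 CPM in Seh1cKO, for a ratio of 1.21 (1.17 to 1.26). Lss, which closes the sterol rings, was at 130.3 and 158 CPM and Cyp51, which removes a methyl group from lanosterol, at 286 and 348 CPM, with ratios of 1.21 and 1.22. These enzymes act one after another and lay at much the same ratio.

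Msmo1, a methyl sterol oxidase, stood at 251 CPM in control against 324 CPM in Seh1cKO, for a ratio of 1.29 (1.24 to 1.34). Hsd17b7, a keto reductase of the same demethylation steps, had 46.3 and 60.2 CPM, for a ratio of 1.30 (1.20 to 1.42). Sc5d, a desaturase near the end, had 49.6 and 66.0 CPM, for a ratio of 1.33 (1.23 to 1.45). These 3 and Idi1 were the 4 enzymes at least 25% higher. The deposited counts of 11 members were not whole, so their reads may have been split with other genes and their values are uncertain. These were Idi1, Hsd17b7, Sc5d, Cyp51, Acat2 and Fdft1 among the enzymes, and Vldlr, Lpl, Apod, Npc1 and Soat1.

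The last step did not share this direction. Dhcr7, the final reductase of one branch to cholesterol, stood at 186 CPM in control against 167 CPM in Seh1cKO, for a ratio of 0.897 (0.856 to 0.939). Tm7sf2, a sterol reductase after Cyp51, had 81.3 and 74.2 CPM, for a ratio of 0.913 (0.852 to 0.979). An exonic stretch of 532 bases of Tm7sf2 is shared with Vps51 on the same strand in the GENCODE annotation, and one of 1124 bases of Fdps with Gm43738. Fdft1, squalene synthase, was at 268 and 279.7 CPM and overlaps Ctsb on the opposite strand over 774 exonic bases. Cyp51 and Npc1 overlap Akap9 and Rmc1 in the same way, over 166 and 511 bases, and the strand setting of the counting is not stated. Nsdhl (81.6 and 82.1 CPM) and Ebp (17.7 and 20.7 CPM), a dehydrogenase and an isomerase, lie on chromosome X, in libraries that differed in Xist; its part in these values was not tested.

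All 4 SREBP regulators lay between the limits, as did 69.9% of all genes, so with 4 genes this is near the background. Srebf2, which encodes SREBP-2, stood at 381 CPM in control against 392 CPM in Seh1cKO, for a ratio of 1.03 (0.998 to 1.06). Its escort Scap had 177 and 204 CPM, for a ratio of 1.16 (1.11 to 1.21). Insig1, the retention protein that is itself an SREBP target, had 261 and 292 CPM, for a ratio of 1.12 (1.08 to 1.16). Insig2, the related protein with less dependence on SREBP, was at 37.4 and 38.8 CPM, with an interval of 0.939 to 1.15. The median log2 difference of these 4 was 0.11. The intervals of 2 of the 4, Scap and Insig1, lay above 1, where 35.5% of all genes did.

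Uptake genes went both ways. Lrp1, a large endocytic receptor for apolipoprotein E, stood at 592 CPM in control against 693 CPM in Seh1cKO, for a ratio of 1.17 (1.14 to 1.20). Scarb1, the receptor for high-density lipoprotein, had 80.1 and 107 CPM, for a ratio of 1.34 (1.26 to 1.43). Vldlr, a lipoprotein and reelin receptor, was at 104 and 71.2 CPM, 1.47-fold lower (1.37 to 1.57). Lpl, the lipase that frees fatty acids from lipoproteins, was at 12.9 and 13.2 CPM, with an interval that held 1. Thus 1 of 4 was at least 25% higher and 1 at least 20% lower, where 21.3% and 8.82% of all genes were. The median log2 difference was 0.12, and 0.32 without Vldlr and Lpl, whose counts were fractional.

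The efflux and carrier genes included the lowest and the highest log2 differences among the members, those of Apoe and Apod. None of the 4 lay between the limits, 3 being lower and 1 higher, where 8.82% and 21.3% of all genes were. Apoe, the main lipid carrier secreted by glia (chromosome 7, 19696244 to 19701310), stood at 5266 CPM in control against 2103 CPM in Seh1cKO, or 2.50-fold less (2.48 to 2.53). Abca1, which exports cholesterol to lipid-poor apolipoproteins (chromosome 4, 53030789 to 53159988), was at 209 and 153 CPM, 1.37-fold lower (1.31 to 1.43). Abcg1, which loads cholesterol onto lipoprotein particles (chromosome 17, 31057694 to 31117984), was at 14.9 and 8.50 CPM, 1.75-fold lower (1.45 to 2.12). Each of these intervals lay below 1.

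Apod, a lipocalin carrier found in oligodendrocytes and fibroblasts (chromosome 16, 31296192 to 31314808), went the other way. It stood at 7.14 CPM in control against 22.8 CPM in Seh1cKO, for a ratio of 3.20 (2.65 to 3.87), and its read counts were not whole. The median log2 difference of the 4 genes was -0.60. It was -0.45 without Apoe and -0.74 without Apod. Apoe alone took 0.527% of all reads in control and 0.210% in Seh1cKO, so the sum of the role follows it.

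Markers of other cells moved in the same libraries. Apoe is made by astrocytes and microglia, and the 10 astrocyte markers summed to 12092 CPM in control and 7900 CPM in Seh1cKO, for a ratio of 0.653 (0.649 to 0.657). Of these, 8 were lower and 2 higher, where 39.1% and 60.9% of all genes were. Their median was -0.23, and none was at 0. Gfap, the largest part of the control sum (5200 and 2214 CPM), was 2.35-fold lower. Slc1a3 (1227 and 1072 CPM) and Atp1b2 (2873 and 2228 CPM) differed less. The 2 higher were Aldh1l1 (414 and 483 CPM) and Gja1 (109 and 153 CPM). The 9 microglia markers were near the floor, at 9.17 and 19.3 CPM in sum, with 5 under a mean of 1 CPM and none at 0; the most abundant were Cd68, Tmem119 and P2ry12. All 10 fibroblast and mural markers were higher, where 60.9% of all genes were, and 7 were past 2-fold higher, against 2.86%. They summed to 322 and 969 CPM, a ratio of 3.01 (2.93 to 3.09), and the most abundant were Fn1, Col1a1 and Tagln. The part of these cells in the values of Apoe, Abca1, Abcg1 and Apod was not tested.

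The 14 oligodendrocyte lineage markers summed to 5328 and 3395 CPM. Of these, 9 were lower and 5 higher, where 39.1% and 60.9% of all genes were. All 9 were past 2-fold lower, against 1.29%. The most abundant were Olig1, Cnp (1037 and 347 CPM) and Ptprz1 (488 and 657 CPM). Epithelial and mesothelial markers summed to 11.0 CPM in control and 204 CPM in Seh1cKO, led in abundance by Krt8, Krt18 and Msln. Of the 7, 6 were past 2-fold higher, against 2.86% of all genes. The 7 neuronal markers summed to 415 and 441 CPM, led in abundance by Map2, Tubb3 and Stmn2. Of these 7, 5 were higher, where 60.9% of all genes were, and the same 5 were at least 25% higher, against 21.3%. Of the 6 endothelial markers, at 11.1 and 25.4 CPM in sum, Cldn5 was at 0 in control. The 4 that passed the floor included 3 higher, where 60.9% of all genes were. The most abundant were Cdh5 (1.01 and 13.8 CPM), Kdr (5.35 and 4.95 CPM) and Flt1 (3.23 and 4.32 CPM). Most of the difference in the sum thus lay in Cdh5.

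Among transport and storage genes, Stard4 differed from the rest. Stard4, a soluble carrier that moves sterol between membranes and is an SREBP-2 target, stood at 16.5 CPM in control against 34.3 CPM in Seh1cKO, for a ratio of 2.07 (1.82 to 2.37). Its log2 difference of 1.01 fell short of 2-fold with a pseudocount of 5, with either rescaling and on the FPKM scale. Npc2, which hands cholesterol to Npc1 in the lysosome, had 262 and 295 CPM, for a ratio of 1.13 (1.09 to 1.17). Npc1 itself was at 115 and 111 CPM. The late endosomal carrier Stard3 was at 32.7 and 31.7 CPM, and the oxysterol-binding exchanger Osbp at 78.1 and 77.0 CPM. Soat1, which esterifies cholesterol for storage, was at 26.1 and 28.3 CPM. The intervals of Npc1, Stard3, Osbp and Soat1 held 1.

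**Figure D4:**
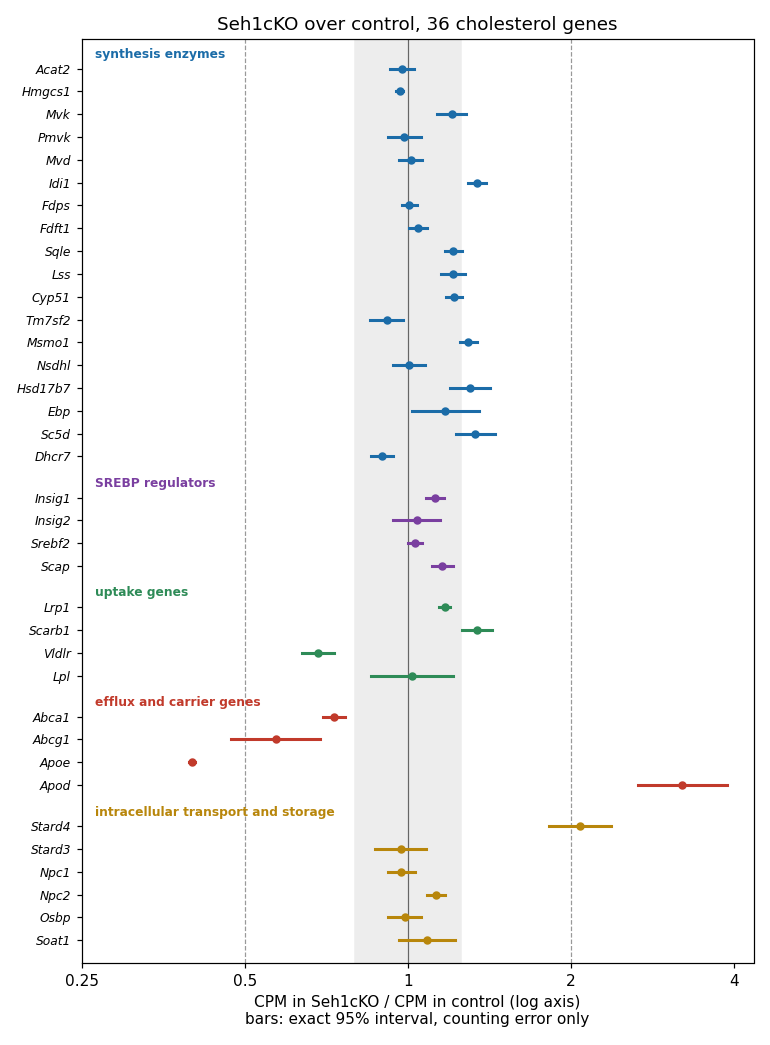
Ratio of CPM in Seh1cKO to CPM in control (x axis, log scale) for the 36 cholesterol genes, with exact 95% intervals for counting error (bars); the grey band runs from 20% lower to 25% higher and dashed lines mark 2-fold. The ratios of the regulators and most synthesis enzymes lie in the band. Those of Idi1, Msmo1, Hsd17b7, Sc5d, Scarb1 and Vldlr lie outside it, as do those of all 4 efflux and carrier genes and Stard4.

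Set side by side, 0 of the 22 enzymes and regulators were past 2-fold, where 2.86% of all genes were higher and 1.29% lower, so a count of 0 is near the background. None of the 22 was at least 20% lower, where 8.82% of all genes were. Of the 8 uptake, efflux and carrier genes, 2 lay between the limits, 2 were higher and 4 lower, against 69.9%, 21.3% and 8.82% of all genes. The median log2 difference of these 8 was -0.21. Genes are not replicates, so no test between roles was made, and the roles are not shown to differ.

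The authors' deposited table of 896 genes holds 3 members. In the authors' deposited table the log2 fold change was -1.33 for Apoe, 1.68 for Apod and 1.05 for Stard4, from FPKM of the same libraries. Of all measured genes 5.88% were in that table.

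Of the 41 further pathway genes, 39 passed the floor, of which 8 were at least 25% higher, 5 at least 20% lower and 26 between. The shares of all genes were 21.3%, 8.82% and 69.9%, so these counts are near the background. One, Apoc1, was past 2-fold. Of 2 further synthesis genes, Lbr, a nuclear envelope protein with sterol reductase activity, was at 22.8 and 32.6 CPM. The other, Ggps1, which makes geranylgeranyl pyrophosphate, was at 17.1 and 18.5 CPM, with an interval that held 1. Of the 8 further regulators 7 lay between the limits. The exception was Srebf1, which encodes the SREBP-1 forms that favour fatty acid genes, at 471 CPM in control against 338 CPM in Seh1cKO, or 1.39-fold less (1.35 to 1.44). The processing proteases Mbtps1 (131 and 141 CPM) and Mbtps2 (24.6 and 26.9 CPM) and the LXR genes Nr1h2 (103 and 95.7 CPM) and Nr1h3 (2.75 and 3.06 CPM) were among the 7, as was the ubiquitin ligase Rnf139 (47.2 and 42.7 CPM).

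Of 3 further uptake genes 1 was at least 25% higher. This was Lrp8, a receptor for apolipoprotein E and reelin, with 64.2 and 95.9 CPM and a ratio of 1.50 (1.39 to 1.60). Mylip, a ubiquitin ligase for lipoprotein receptors, was at 2.99 and 3.20 CPM, with an interval that held 1. Of 9 further efflux and carrier genes that passed the floor, 7 were lower, where 39.1% of all genes were, and 4 were at least 20% lower, against 8.82%. The median log2 difference of the 9 was -0.31. Those at least 20% lower were Apoc1, Lcat, Cyp46a1 and the transporter Abca7 (31.6 and 24.9 CPM). Lcat, which esterifies cholesterol on lipoproteins, stood at 102 CPM in control against 55.0 CPM in Seh1cKO, or 1.86-fold less (1.73 to 2.00). Clu, another abundant glial apolipoprotein, was at 856 and 690.1 CPM, 1.24-fold lower (1.21 to 1.27), and lay between the limits. Cyp46a1, which makes the oxysterol that leaves the brain, was at 36.2 and 28.7 CPM, 1.26-fold lower (1.13 to 1.41). The summed astrocyte markers given above, of which Gfap was the largest in control, were also lower in Seh1cKO. The part of astrocytes in these values was not tested. Of 17 further transport and storage genes, 13 were higher and 4 lower, where 60.9% and 39.1% of all genes were, and 49.3% were higher under median-of-ratios scaling. The 2 with the largest differences were Tspo, a mitochondrial membrane protein, at 20.1 and 30.6 CPM and Gramd1b, a sterol carrier at membrane contacts, at 3.91 and 5.63 CPM.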

How the data were processed

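RNA sequencing was analysed from 1 control and 1 Seh1cKO library. The authors deposited expected counts and FPKM values per gene, per the file headers. HTSeq, StringTie and mm10 appear in the submitters' processing notes; no aligner or strand setting is stated there. The authors' deposited table gives a log2 fold change and p-values for 896 genes, by a test not named in the sources used here. Expected counts were rounded, scaled to CPM and compared as log2(CPM + 1) where the mean reached 1 CPM; a gene missing from a table was set to 0, which allows up to 3 reads (0.145 CPM in control, 0.146 CPM in Seh1cKO). Expected counts deposited by the authors were not whole (tolerance 0.005) for 29.3% and 29.5% of genes. Intervals come from the counts of the 2 libraries alone, so they cover counting error only. Reads carry no molecular identifiers, so copies of 1 molecule may be counted as separate reads, and the intervals may be too narrow. Python 3.11.15, pandas 2.3.3 and scipy 1.17.1 were used. The interval code was run on simulated counts with Poisson error only, the error the intervals assume. That run cannot show how they perform with variation between cultures or fractional counts. Coordinates come from RefSeq (GRCm38.p6), which matched all 36 members, and exon overlaps from GENCODE vM21. The members and lists were chosen with earlier results of these data known. The rule for named genes takes Seh1l, all members, further pathway genes past 2-fold, the 2 per role with the largest difference, and the 3 most abundant of each marker list. Some further pathway genes of the lists are not reported here and were left out of all counts of further genes. Other genes were named after their values were seen. No value column was left without a sample (0 columns).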

Additional observations from a re-analysis of the deposited data

How the results depend on the processing

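With 1 library per genotype no result has a replicate check, and depth limits low genes such as Abcg1. Read against the fixed and added alternatives, no member at least 25% higher or 20% lower changed direction. The number of members past 2-fold higher, 2 as reported, was 1 with a pseudocount of 5, with median-of-ratios size factors, with upper-quartile scaling and on the FPKM scale, where Stard4 fell short. It was also 1 without members whose counts are not whole, which removes Apod, and 0 with a floor of 50 CPM, which removes Apod and Stard4; these 2 alternatives and the removal of single genes were chosen after seeing the data. Median-of-ratios scaling gave 19 members lower at all, against 12, with 7 near equality changing sign (Mvd, Fdps, Fdft1, Nsdhl, Insig2, Srebf2 and Lpl), a regulator median of 0.032 and 2 synthesis enzymes at least 25% higher. It lowered the median of all genes from 0.07 to -0.0049. Without members whose counts are not whole, the synthesis median was 0.012, the uptake median 0.32, 3 members were at least 25% higher, against 7, and 1 synthesis enzyme was, against 4. The efflux and carrier median was -0.89 with a floor of 50 CPM and -0.45 without Apoe. The count of 3 efflux and carrier genes at least 20% lower held under all alternatives that kept them, but not with the floor of 50 CPM, which leaves 2. No paired analysis was possible because each genotype has 1 library.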

Other observations

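Apoe has a near neighbour with a related product. Apoc1, an apolipoprotein gene 3584 bases from Apoe on chromosome 7, stood at 3.96 CPM in control against 1.21 CPM in Seh1cKO, or 3.26-fold less (2.06 to 5.32), from 82 and 25 reads. The next genes on that chromosome, named after their values were seen, differed less. The 5 compared were Tomm40, Clptm1, Pvrl2, Bcam and Relb. Tomm40, a mitochondrial import pore, had 148 and 160 CPM, for a ratio of 1.08 (1.02 to 1.13), and Clptm1 at 300.3 and 264 CPM, 1.14-fold lower (1.10 to 1.18). Pvrl2, a cell adhesion gene, was at 78.8 and 64.4 CPM, 1.22-fold lower (1.14 to 1.32). Bcam, another adhesion gene, was at 52.2 and 39.4 CPM, 1.33-fold lower (1.21 to 1.45), and Relb at 48.6 and 51.9 CPM. Apoc2 had 3 reads in control and 1 in Seh1cKO, too few to compare at this depth.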
